A study of Rattus norvegicus with 6 samples.

Results

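The genes described here are immediate early response genes, which cells transcribe within minutes of a stimulus without first making new protein. A list of 41 such genes was matched to the annotation of a whole-transcript rat gene array, and 39 of them had a probe set carrying their symbol alone, out of 14168 genes measured in this way. The other 2, Fosb and Btg2, were not analysed here. The 6 arrays, 2 in each of 3 groups, held RNA from the inner medulla (the zone around the papilla) of the kidneys of male Sprague-Dawley rats. A subcutaneous osmotic minipump gave vehicle rats saline for 5 d at 1 µl/h. Rats of the dDAVP group received desmopressin (dDAVP, an agonist of the vasopressin V2 receptor) at 40 ng/h for 5 d in the same way. Rats of the withdrawal group had the same dDAVP infusion, then had the pump removed while lightly anaesthetised with enflurane, woke, and were kept for a further 3 h. Removal of the pump is described for this group alone, so the end of the infusion and the procedure cannot be told apart. All rats ate a fixed amount of food and drank freely, and their age is not given in the labels. The labels do not say whether the 2 arrays of a group hold separate rats, so a p-value here reflects the spread of these arrays alone, which may be technical.

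Immediate early genes form the first wave of a transcriptional response. Their promoters are read by factors already present in the cell, among them serum response factor with its partners downstream of MAP kinases, and CREB downstream of cyclic AMP and protein kinase A. The first products are mostly transcription factors (the Fos, Jun, Egr, Klf and Nr4a families), followed by feedback inhibitors such as the dual specificity phosphatases, which switch MAP kinases off, and Zfp36, which marks short-lived mRNAs for decay. In the collecting duct the V2 receptor raises cyclic AMP, so that CREB-driven members are of interest after its stimulation. Members of the family also respond to handling, surgery and osmotic or mechanical stress in many tissues.

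The promoters of the members were searched for the motifs of these factors. RefSeq promoter windows of assembly GRCr8, from 250 bases before to 50 bases after an annotated transcript start, were found for 27 of the 39 genes (29 windows), and exact matches were counted on both strands. None was found for Arc, Atf3, Csrnp1, Egr3, Fos, Ier3, Jun, Klf10, Klf2, Myc, Nr4a3 and Rrad, whose motifs are thus unknown here. A full cyclic AMP response element (CRE, TGACGTCA) lay in the windows of 7 genes (Areg, Crem, Dusp1, Ier2, Jund, Maff and Plk2). These were 8 of the 29 windows, while 1.83% of all 33469 windows held one. The core TGACG, which every full CRE contains, lay in windows of 20 of the 27 genes (22 windows) and in 21.2% of all windows. Such a match is a description of the letters and does not show that a factor binds there. For 6 of the 7 genes the stretch around the full CRE is shown, because V2 receptor stimulation raises cyclic AMP. Capitals mark the motifs named on each line.
Crem, 1 of the 2 windows with a full CRE among its 3, chr17:58985430-58985489, plus strand, CRE in capitals: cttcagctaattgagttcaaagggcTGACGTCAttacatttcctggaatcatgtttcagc
Dusp1, chr10:17184673-17184742, plus strand, CRE and a separate core in capitals: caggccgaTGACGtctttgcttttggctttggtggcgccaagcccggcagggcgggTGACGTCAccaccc
Areg, chr14:17265691-17265741, minus strand, CRE and TATA box in capitals: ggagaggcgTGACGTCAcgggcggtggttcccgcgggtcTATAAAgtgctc
Ier2, chr19:40399293-40399332, plus strand, CRE in capitals: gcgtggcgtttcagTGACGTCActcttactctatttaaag
Maff, chr7:112792672-112792747, plus strand, EGR site and CRE in capitals: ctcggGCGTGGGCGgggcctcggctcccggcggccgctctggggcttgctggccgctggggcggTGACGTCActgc
Plk2, chr2:43702451-43702495, plus strand, CRE in capitals: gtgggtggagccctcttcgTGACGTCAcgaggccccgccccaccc

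The CArG box, to which serum response factor binds, was found in the windows of 5 members (Dusp5, Egr1, Egr2, Klf6 and Zfp36) and in 1.64% of all windows. The stretches around it are shown for 4 of these genes, since Egr1 and Dusp5 hold a pair of boxes and Egr2 and Zfp36 a second motif beside the box. Nr4a1 is added for its CRE cores, as the member with the widest range over arrays. The binding motif of the Egr factors (GCGNGGGCG) was found in 8 members and in 4.98% of all windows. TATAAA was found in 5 members and in 14.2% of all windows. The AP-1 motif TGANTCA was in the windows of none of the 27 genes and in 7.33% of all windows, which says only that these letters are not in these windows.
Egr1, chr18:26736938-26737022, plus strand, CArG boxes and CRE cores in capitals: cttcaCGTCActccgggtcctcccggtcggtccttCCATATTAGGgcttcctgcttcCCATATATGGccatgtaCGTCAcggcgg
Egr2, chr20:21054497-21054536, minus strand, CArG box and CRE core in capitals: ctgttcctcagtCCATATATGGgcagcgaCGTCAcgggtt
Dusp5, chr1:262543684-262543728, plus strand, CArG boxes and CRE core in capitals: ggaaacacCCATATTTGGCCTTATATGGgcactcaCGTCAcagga
Zfp36, chr1:92799124-92799193, minus strand, EGR site and CArG box in capitals: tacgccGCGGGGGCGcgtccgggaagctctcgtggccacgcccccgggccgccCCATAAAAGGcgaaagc
Nr4a1, chr7:134260048-134260097, plus strand, CRE cores and EGR site in capitals: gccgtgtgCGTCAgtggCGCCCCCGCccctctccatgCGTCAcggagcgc

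**Figure D1:**
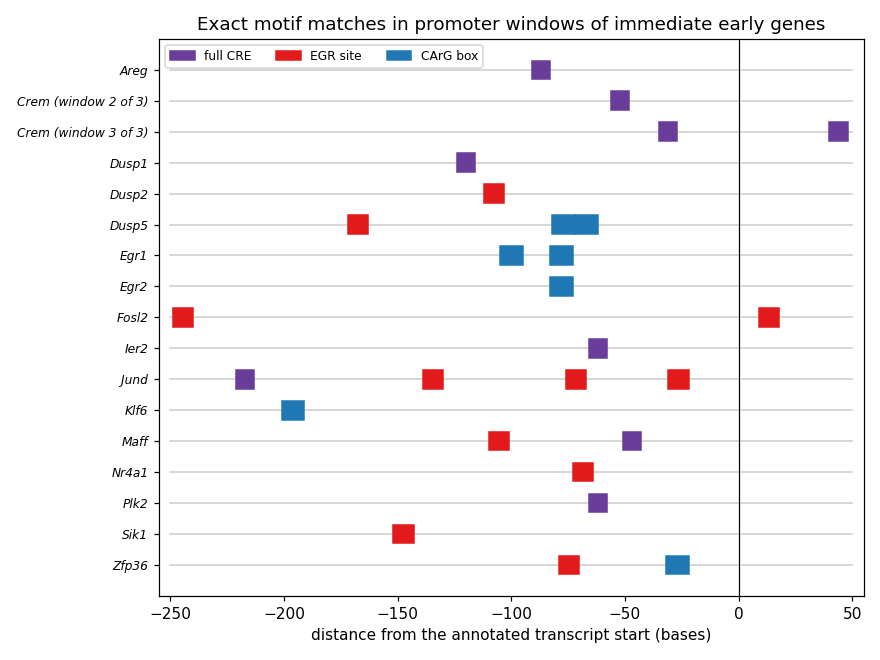
Exact matches of the full CRE, the EGR site and the CArG box in the promoter windows of the members that hold at least 1 of them; the x axis is the distance in bases from the annotated transcript start, each grey line is a window and each block a match. The CArG boxes of Egr1, Egr2 and Dusp5 lie upstream of the start, and 2 of the 3 windows of Crem hold a full CRE.

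The arrays of the whole series differed before any gene list was considered. Their median intensity ran from 156.1 to 182.1, lowest in the 2 dDAVP arrays, and the median gene differed by -0.11 log2 between dDAVP and vehicle, by 0.14 between withdrawal and dDAVP and by 0.03 between withdrawal and vehicle. Vehicle replicate 1 and dDAVP replicate 2 stood apart from the other 4 arrays in many genes. The principal cell marker Aqp2, the water channel of the collecting duct, lay between 13.14 and 13.40 log2 in the 6 arrays. Other principal cell markers spanned more, such as Hsd11b2 (10.43 to 11.24) and Avpr2 (11.04 to 11.71), or less, such as Fxyd4 (12.81 to 12.95). Slc34a1, a phosphate transporter of the cortical proximal tubule, lay between 7.16 and 7.38. In whole tissue, fewer cells of a type and less RNA per cell cannot be told apart.

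The immediate early genes varied more between arrays than the typical gene, also between the 2 arrays of a group. From the lowest to the highest of the 6 arrays a member spanned 0.89 log2 in the median, from 0.32 for Egr3 to 2.23 for Nr4a1, against 0.37 for the median of all genes. A span of at least 1 log2 was seen in 15 of the 39 members and in 3.4% of all genes. Of the members, 30 had a mean level above that of the median gene, and genes of like level were not compared. The 2 dDAVP arrays were at least 1.5-fold apart in 20 members (background over all genes 5.34%), the 2 vehicle arrays in 12 (3.40%) and the 2 withdrawal arrays in 8 (2.29%). These counts are descriptions, with no test.

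Most members were low in the same 2 arrays, 1 from each of 2 different groups. In 22 of the 39 genes vehicle replicate 1 and dDAVP replicate 2 both lay below all of the other 4 arrays, which was so in 12.7% of all genes. After cyclic loess normalization the count was 24 (15.4% of all genes). The reverse order was seen in 2 members, Dusp2 and Gadd45b (10.9% of all genes). The lowest array of a member was dDAVP replicate 2 in 20 genes (22.3% of all genes) and vehicle replicate 1 in 12 (11.2%). The highest was withdrawal replicate 2 in 18 (28.1%) and dDAVP replicate 1 in 11 (9.25%). By array, the median deviation of the 39 genes from their own mean was -0.22 in vehicle replicate 1, 0.02 in vehicle replicate 2, 0.18 in dDAVP replicate 1 and -0.30 in dDAVP replicate 2. It was 0.07 and 0.21 in the withdrawal arrays. Within dDAVP, 1 array was thus among the highest of the series for these genes and the other the lowest. No member had both withdrawal arrays below the other 4 (3.90% of all genes), and 9 had both above (14.7%).

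**Figure D2:**
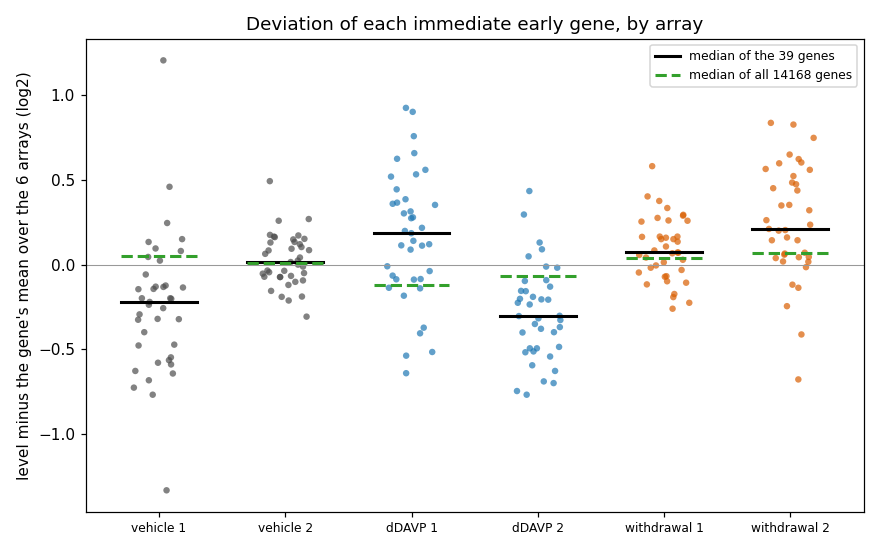
Deviation of each of the 39 genes from its mean over the 6 arrays (y axis, log2), by array (x axis); each point is a gene, the black bar is the median of the 39 genes and the dashed green bar the median of all 14168 genes. The black bar is at -0.22 in vehicle replicate 1 and -0.30 in dDAVP replicate 2, and lies above 0 in the other 4 arrays.

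Markers of other cells also differed between arrays, and their array orders were not all the same. The proliferating cell list had 5 of its 6 genes measured, with a sum of intensities of 719 and 2278 in vehicle, 1598 and 605 in dDAVP, and 2702 and 2222 in withdrawal. These markers were lowest in the same 2 arrays as most members, and so were the sums of some other lists. Thin limb of Henle markers (4 genes) summed to 8169 in vehicle replicate 1 and 8944 in dDAVP replicate 2, against 10740 to 12298 elsewhere. Smooth muscle and pericyte markers (5 genes) were at 4232 and 3801 there, against 4582 to 5439. Within these lists Epha7 and Rgs5 had the reverse order. Macrophage markers, with 8 of 8 genes measured, summed to 4022 and 5242 in vehicle, 5095 and 3827 in dDAVP and 4617 and 4281 in withdrawal. The macrophage sum was thus also lowest in vehicle replicate 1 and dDAVP replicate 2. Of that list, Cd74 had the reverse order, highest in vehicle replicate 1 (9.99 log2) and dDAVP replicate 2 (9.86). Intercalated cell markers, 5 of 6 measured, summed to 1205 and 2950 in vehicle, 3025 and 2115 in dDAVP and 3168 and 1766 in withdrawal. No marker is listed at 0 on these arrays. Endothelial markers, 7 of 8 measured, summed to 9447 and 8634 in vehicle, 9067 and 10052 in dDAVP and 8082 and 7018 in withdrawal. The sums were thus lowest in both withdrawal arrays. By gene, Pecam1, Tek and Slc14a1 were lowest in those arrays, while Cdh5, Kdr, Tie1 and Plvap did not have that order. The highest endothelial sums were in dDAVP replicate 2 and vehicle replicate 1. Urothelial markers (4 genes) were highest in the same 2 arrays, at 998 and 933, against 590 to 857 in the others. T cell markers, 6 of 6 measured, summed to 1798 and 1374 in vehicle, 1087 and 1285 in dDAVP and 912 and 1207 in withdrawal. Principal cell markers, 10 of 10 measured, lay between 26193 and 29725. The part of these cells in the levels of the immediate early genes was not tested.

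The AP-1 subunits, which pair as Fos-Jun dimers to bind DNA, were low in the same arrays in 4 of 6 measured members. Fos, the founding member, had log2 intensities of 8.02 and 8.19 in vehicle, 8.71 and 7.86 in dDAVP, and 8.12 and 9.17 in withdrawal. Its highest value was in withdrawal replicate 2 and its lowest in dDAVP replicate 2, and every pair of groups overlapped. Jun, its most frequent partner, was at 9.44 and 9.83 in vehicle, 9.81 and 9.37 in dDAVP and 9.99 and 9.74 in withdrawal. Here too the groups overlapped, with both of the standing-apart arrays lowest. Fosl1, a Fos relative that lacks a strong activation domain, was dim, at 7.17 and 7.04 in vehicle, 7.19 and 6.85 in dDAVP and 7.27 and 7.85 in withdrawal. Both withdrawal arrays lay above the other 4 for Fosl1, by a wide margin only in withdrawal replicate 2. Junb spanned 1.10 log2 and Fosl2 0.90 over the arrays, while Jund, which is more constant across cell states than its relatives, spanned 0.45. The second probe set of Fosl2 gave 8.49 and 9.02 in vehicle and 9.23 and 8.51 in dDAVP, again lowest in vehicle replicate 1 and dDAVP replicate 2.

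The other basic leucine zipper factors, Atf3, Maff and Crem, were all lowest in the same 2 arrays. Atf3, which is induced by many stresses, was at 8.13 and 8.88 in vehicle, 9.06 and 8.01 in dDAVP and 9.11 and 9.06 in withdrawal. Both withdrawal arrays lay above every other array for Atf3, but dDAVP replicate 1 was level with the lower of them after rounding. Crem, a CREB relative whose internal promoter makes the cyclic AMP-inducible repressor ICER, was at 9.87 and 10.48 in vehicle, 11.04 and 9.90 in dDAVP and 10.31 and 10.90 in withdrawal. Its highest array was dDAVP replicate 1, and the 2 dDAVP arrays (difference -1.14 for replicate 2 minus replicate 1) were farther apart than the means of any 2 groups. Maff, a small Maf protein without an activation domain, spanned 0.67 log2.

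Of the Egr zinc finger factors, Egr1 and Egr2 varied widely and Egr3 and Egr4 little. Egr1, whose promoter stretch with 2 CArG boxes is shown above, was at 8.69 and 8.89 in vehicle, 9.74 and 8.49 in dDAVP and 9.09 and 9.0 in withdrawal. The 2 dDAVP arrays held both its highest and its lowest level. Egr2 spanned 0.93 log2, from dDAVP replicate 2 to withdrawal replicate 2. Egr3 and Egr4 were dim, with mean levels at percentiles 29.1 and 35.8 of all genes, and spanned 0.32 and 0.37. For both of them the 2 dDAVP arrays lay below the other 4, an order seen in 33.6% of all genes. It was seen in 5 members in all, the others being Klf10, Nr4a3 and Areg.

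Of the Klf zinc finger factors, Klf2 and Klf10 separated dDAVP from vehicle, in opposite directions. Over all genes, 4.80% had both dDAVP arrays above both vehicle arrays, as Klf2 did, and 40.6% had them below, as Klf10 did. Klf2, best known for its induction by flow in endothelium, was at 9.02 and 9.05 in vehicle, 9.35 and 9.20 in dDAVP and 9.12 and 9.17 in withdrawal. Both dDAVP arrays lay above the other 4 and both vehicle arrays below, and no other member had both dDAVP arrays on top (background 3.14%). Klf10, a TGF-beta inducible repressor, was at 9.17 and 9.29 in vehicle, 8.72 and 8.90 in dDAVP and 9.50 and 9.17 in withdrawal. The dDAVP arrays were its lowest. Klf4, an epithelial differentiation factor, was at 8.63 and 9.38 in vehicle, 9.75 and 8.53 in dDAVP and 9.20 and 9.82 in withdrawal, so that replicates differed more than groups. Its dimmer probe set showed the same order of vehicle and dDAVP arrays, at 7.36, 8.21, 8.67 and 7.13. Klf6 spanned 0.48 log2 and was lowest in withdrawal replicate 1.

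Among the Nr4a orphan nuclear receptors, Nr4a1 had the widest span of all members. Nr4a1 (Nur77), a classic target of CREB, was at 7.21 and 8.42 in vehicle, 9.44 and 8.19 in dDAVP and 9.12 and 8.86 in withdrawal. Vehicle replicate 1 was its lowest array and dDAVP replicate 1 its highest, while vehicle replicate 2 lay above dDAVP replicate 2. The withdrawal arrays were both above the vehicle arrays. Nr4a2 ran from 7.31 to 8.65 and was lowest in the standing-apart arrays as well. Nr4a3 was the dimmest member, at 6.83 and 6.63 in vehicle, 6.61 and 6.49 in dDAVP and 6.78 and 6.84 in withdrawal, a span of 0.35.

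Myc, which drives growth and the cell cycle, showed the same 2 arrays well below the rest. It was at 7.46 and 8.36 in vehicle, 8.37 and 7.44 in dDAVP and 8.46 and 9.02 in withdrawal. Vehicle and dDAVP covered almost the same interval, and both withdrawal arrays lay above it. The nuclear factor Csrnp1 spanned 0.39 log2, with both withdrawal arrays above the other 4. Ier2 and Ier5, nuclear proteins of the same early wave, spanned 0.63 and 0.42 and were lowest in dDAVP replicate 2 and vehicle replicate 1.

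**Figure D3:**
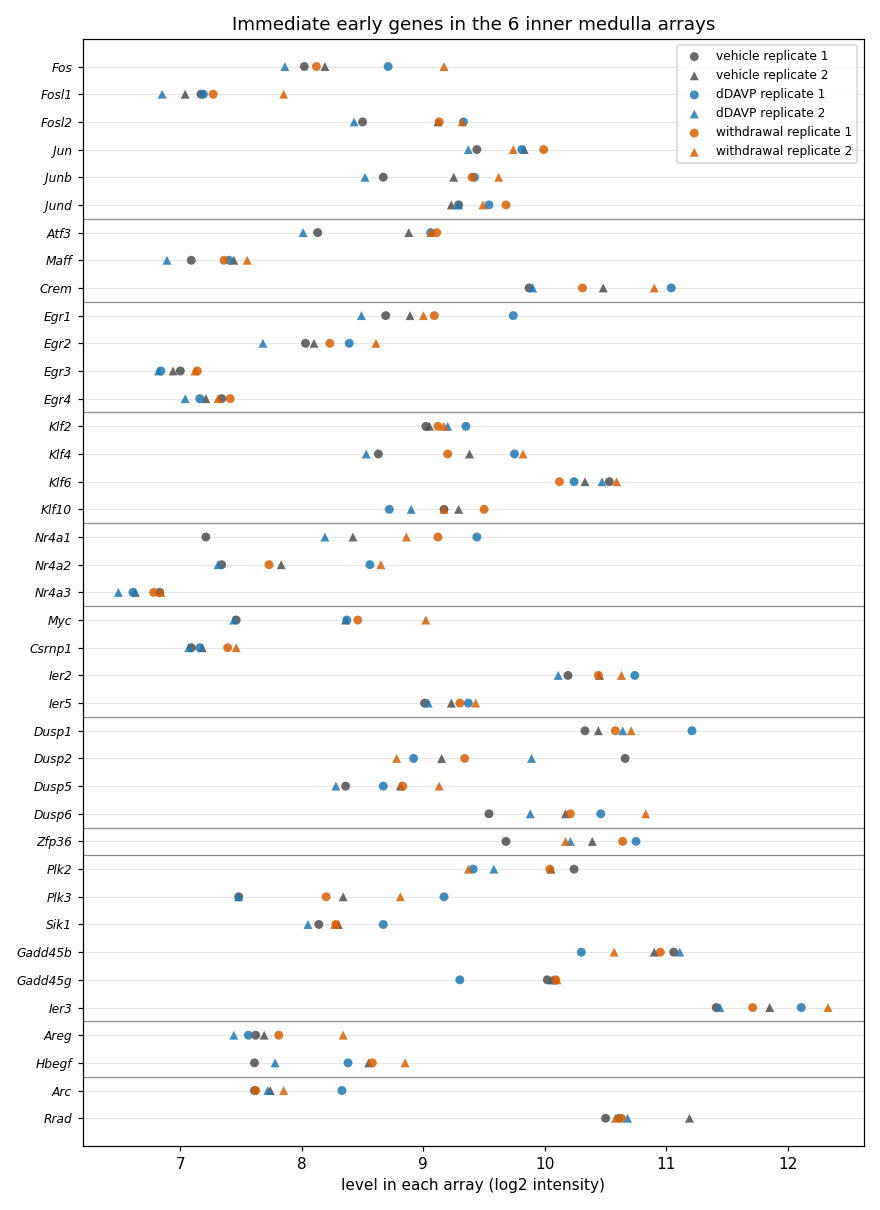
Level of each of the 39 genes (rows, grouped by role) in each of the 6 arrays (x axis, log2 intensity); colours mark the group and symbols the replicate. In rows such as Nr4a1, Crem, Plk3 and Egr1 the 2 dDAVP arrays lie far apart, whereas Plk2 and Klf10 have both dDAVP arrays below both vehicle arrays.

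The MAP kinase phosphatases had different array orders. Dusp1, which switches off p38, JNK and ERK in the nucleus and whose CRE is shown above, was at 10.33 and 10.44 in vehicle, 11.21 and 10.64 in dDAVP and 10.58 and 10.71 in withdrawal. Both vehicle arrays were its lowest, an order shared with Jund and Klf2 among the members and seen in 0.805% of all genes. For Jund, vehicle replicate 1 and dDAVP replicate 2 were level at 9.29 after rounding. The share is as deposited, where median intensities were higher in vehicle (182.1 and 174.6) than in dDAVP (156.1 and 165.1). The share after loess was not counted. Dusp6, an ERK phosphatase of the cytoplasm, was at 9.54 and 10.17 in vehicle, 10.46 and 9.88 in dDAVP and 10.21 and 10.83 in withdrawal. The withdrawal arrays lay above both vehicle arrays, narrowly so for withdrawal replicate 1. Dusp5, a nuclear ERK phosphatase with 2 adjoining CArG boxes, spanned 0.85 log2 and had both withdrawal arrays above the other 4. Dusp2, described outside the naming rule because its order was the reverse, was at 10.66 and 9.15 in vehicle, 8.92 and 9.89 in dDAVP and 9.34 and 8.78 in withdrawal. Its 2 highest arrays were the 2 that stand apart. Dusp2 is known mainly from blood cells, and the part of such cells in its level was not tested.

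The mRNA decay factor Zfp36 (tristetraprolin) ran from 9.68 in vehicle replicate 1 to 10.75 in dDAVP replicate 1. Among the kinases and stress regulators, Plk2, a polo-like kinase with a full CRE, had another order. Plk2 was at 10.24 and 10.05 in vehicle, 9.41 and 9.58 in dDAVP and 10.04 and 9.37 in withdrawal. Both vehicle arrays were its highest, which no other member showed (background 4.71%). Its relative Plk3 ran from 7.48 in both of the standing-apart arrays to 9.17 in dDAVP replicate 1, and had the widest gap of the members between the dDAVP arrays (-1.69 for replicate 2 minus replicate 1). Sik1, the salt-inducible kinase that restrains CREB coactivators, spanned 0.62 log2 and Ier3, a survival factor and the brightest member, 0.92. Gadd45b and Gadd45g, activators of stress kinases, spanned 0.81 and 0.80 and were lowest in dDAVP replicate 1, where the median member lay above its mean.

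Both measured ligands of the epidermal growth factor receptor were highest in withdrawal. Areg (amphiregulin) was at 7.62 and 7.69 in vehicle, 7.56 and 7.44 in dDAVP and 7.81 and 8.34 in withdrawal. The 3 groups did not overlap for Areg, narrowly so between vehicle and dDAVP (7.62 against 7.56). In 40.6% of all genes both dDAVP arrays lay below both vehicle arrays, and the Areg difference was -0.01 after loess. Having both withdrawal arrays above the other 4 was seen in 14.7% of all genes. Hbegf was at 7.61 and 8.55 in vehicle, 8.38 and 7.78 in dDAVP and 8.58 and 8.85 in withdrawal. Both withdrawal arrays lay above the other 4 for Hbegf, narrowly so against vehicle replicate 2. The cytoskeletal protein Arc was highest in dDAVP replicate 1 (8.33, against at most 7.85 elsewhere), and the small GTPase Rrad was highest in vehicle replicate 2 (11.19, against at most 10.68).

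Rats infused with dDAVP were first set against rats infused with saline, which addresses the state of these genes under 5 d of receptor stimulation. No member passed an adjusted p of 0.05 in limma (Benjamini-Hochberg adjustment over all 14168 genes, smallest adjusted p among members 0.549), and the background was 0%, since no gene of the array passed. At an unadjusted p under 0.05 there were 4 members of 39, against 7.43% of all genes (2 higher against 0.572%, and 2 lower against 6.85%). These were Klf2 (difference 0.24 ± 0.10 SE) and Dusp1 (0.55 ± 0.19, 1.46-fold higher in dDAVP), and Klf10 (-0.42 ± 0.14) and Plk2 (-0.65 ± 0.22, 1.57-fold lower). The 4 kept their sign with array medians subtracted and after loess. Dusp1 was at 0.26 without dDAVP replicate 1 and at 0.83 without dDAVP replicate 2. Dusp1 and Plk2 both carry a full CRE in the stretches shown, and differed in opposite directions. The other members with a full CRE in a window that was found were at 0.30 ± 0.41 (Crem), 0.16 ± 0.12 (Jund), 0.11 ± 0.22 (Ier2), -0.12 ± 0.20 (Maff, 0.05 after loess) and -0.15 ± 0.18 (Areg).

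The largest difference of this comparison was that of Nr4a1, at 1.00 ± 0.51 log2 (2.00-fold), with overlapping groups and an adjusted p of 0.549 in limma. It was 0.39 without vehicle replicate 1 and 0.37 without dDAVP replicate 1, and 1.60 without vehicle replicate 2 and 1.62 without dDAVP replicate 2. Over all members the median difference was 0.01, with 20 above 0, where 22.1% of all genes lay above 0 and the median gene was at -0.11, and 19 below 0 (77.9%). After loess 27 members lay above 0 against 49.8% of all genes and 12 below (50.2%), with a median of 0.10. The sign of 10 members differed between the 3 scalings (Fosl1, Jun, Maff, Egr2, Egr3, Klf6, Myc, Csrnp1, Dusp5 and Hbegf). Arrays of the 2 groups did not overlap in 3 members higher in dDAVP (background 4.80%) and 6 lower (40.6%). After loess these counts were 3 (15.2%) and 2 (14.8%). Nr4a1 was the only member at least 1.5-fold higher (0.134% of all genes) and Plk2 the only one lower by that fold (0.332%).

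The values for dDAVP against vehicle depended on which dDAVP array was kept. Where a group is left with 1 array, the fit assumes that it varies like the other groups. Without dDAVP replicate 1 the median member was at -0.23, with 10 of 39 above 0 (27.4% of all genes) and 0 at an unadjusted p under 0.05 (2.68%). Without dDAVP replicate 2 it was at 0.31, with 28 above 0 (24.5%) and 14 at an unadjusted p under 0.05 (11.1%). Without vehicle replicate 1 and without vehicle replicate 2 the median was -0.07 and 0.22, with 1 such member each (3.96% and 11.5% of all genes). With both standing-apart arrays left out, 1 vehicle and 1 dDAVP array remained, and 23 members lay above 0 (22.9% of all genes) with a median of 0.17. In that setting Egr1 was at 0.85, Plk3 at 0.83, Dusp1 at 0.78 and Nr4a1 at 1.02, whereas Plk2 was at -0.65 and Klf10 at -0.57. No member had an adjusted p under 0.05 in limma in any of these settings.

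Withdrawal was then set against continued dDAVP, which addresses the state of these genes 3 h after the infusion ended. This comparison uses the same dDAVP arrays as the one before, so their differences are not independent. No member passed (smallest adjusted p 0.260, limma, background 0%). At an unadjusted p under 0.05 there were 6 members, all higher after withdrawal, against 17.3% of all genes higher and 1.64% lower (19.0% in all). They were Klf10 (0.53 ± 0.14), Egr3 (0.30 ± 0.09), Csrnp1 (0.31 ± 0.09), Areg (0.57 ± 0.18), Fosl1 (0.54 ± 0.21) and Egr4 (0.26 ± 0.10). After loess Egr3, Egr4 and Csrnp1 were at 0.09, 0.06 and 0.11, and 1 member had an unadjusted p under 0.05 (6.51% of all genes). That count was 2 with array medians subtracted (8.94%). Without withdrawal replicate 2, Areg was at 0.31 and Fosl1 at 0.25.

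The largest differences in this comparison belonged to Myc (0.83 ± 0.41, 1.78-fold) and Hbegf (0.64 ± 0.34, 1.56-fold), the only members at least 1.5-fold higher (background 1.5%). Without dDAVP replicate 2 they were at 0.37 and 0.34, under that fold, and without dDAVP replicate 1 at 1.29 and 0.94. Atf3 (0.55 ± 0.38) was at 0.03 and 1.08 in the same settings. None was 1.5-fold lower (0.268%). Of the 39 members 31 lay above 0, against 74.9% of all genes, and 8 below (25.1%), and the arrays of the groups did not overlap in 12 higher members against 49.6% of all genes. The single lower one was Klf2 (8.06%). After loess 30 lay above 0 against 50.9% and 9 below (49.1%), and the arrays did not overlap in 6 higher members (20.3%) and 1 lower (19.1%). With all arrays the median member was at 0.26. Without dDAVP replicate 2 it was at 0.05, below the median gene at 0.17. Without dDAVP replicate 1 it was 0.50, with 17 members at an unadjusted p under 0.05 (11.5% of all genes). With both standing-apart arrays left out and after loess, 17 of 39 lay above 0 (51.2% of all genes) with a median of -0.04, against 22 of 39 (76.5%) with no loess. Dusp1 was at -0.29 ± 0.19, Arc at -0.29 ± 0.21 and Egr1 at -0.07 ± 0.37. With those arrays left out these 3 were at -0.57, -0.59 and -0.70, and Areg and Klf10 at 0.52 and 0.62.

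Withdrawal against vehicle set rats whose dDAVP infusion had ended against rats given saline only, and shares arrays with both comparisons above. Here 34 of 39 members lay above 0, against 59.5% of all genes, and the same 34 signs held in all 3 scalings. The median member was at 0.29 and the median gene at 0.03. The scalings moved this comparison little (median member 0.27 after loess, 0.28 with array medians subtracted), so few signs could have changed. Both withdrawal arrays lay above both vehicle arrays in 19 members against 17.6% of all genes, and in 20 after loess against 16.1%. In the lower direction the arrays did not overlap for 1 member, Plk2 (13.1%), and for none after loess (16.0%). After loess 34 members lay above 0 (51.4%) and 5 below (48.6%). No member passed (smallest adjusted p 0.995, limma, background 0%), and 2 had an unadjusted p under 0.05 against 1.79% of all genes (0.642% higher and 1.14% lower). Both were higher, namely Csrnp1 (0.29 ± 0.09) and Jund (0.33 ± 0.12). In the same comparison the median difference of the markers was 1.02 for proliferating cells (5 genes), -0.34 for endothelium (7 genes) and -0.48 for T cells (6 genes, all below 0). The sums of the proliferating cell markers overlapped between the groups, with 719 and 2278 in vehicle and 2702 and 2222 in withdrawal. Their difference thus leaned on vehicle replicate 1. The part of these cells in the values of the members was not tested.

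After withdrawal 6 members were at least 1.5-fold above vehicle (background 0.649%), none of which passed. Those with arrays that did not overlap were Nr4a1 (1.17 ± 0.51 log2, 2.25-fold), Myc (0.83 ± 0.41), Dusp6 (0.66 ± 0.31) and Hbegf (0.64 ± 0.34). Atf3 (0.58 ± 0.38) lay just under that fold. Nr4a2 (0.60 ± 0.47) and Plk3 (0.60 ± 0.57) were the other 2 at that fold, with overlapping groups. Below 0 were Dusp2 (-0.85 ± 0.54, the only member at least 1.5-fold lower, background 0.423%), Plk2 (-0.44 ± 0.22), Rrad (-0.24 ± 0.22), Gadd45b (-0.22 ± 0.27) and Klf6 (-0.07 ± 0.18). Fos was at 0.54 ± 0.40, Crem at 0.43 ± 0.41, Egr1 at 0.26 ± 0.37 and Jun at 0.24 ± 0.20.

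Without the standing-apart arrays the median difference between withdrawal and vehicle was smaller, with the same sign. dDAVP replicate 2 has no part in this difference. Vehicle replicate 1 was singled out from these same values and was low for most members. Leaving it out therefore lowers most of these differences by construction. With vehicle replicate 2 as the single vehicle array and both withdrawal arrays, 33 members lay above 0 (59.5% of all genes) and the median was 0.15. Nr4a1 was then at 0.56, Fosl1 at 0.52, Areg at 0.39, Myc at 0.38, Dusp6 at 0.35, Atf3 at 0.21 and Hbegf at 0.16. Without withdrawal replicate 2 the median was 0.17, with 33 above 0. With single arrays left out, it ran from 0.15 to 0.36. The count at an unadjusted p under 0.05 was 1 without vehicle replicate 1 (1.41% of all genes) or withdrawal replicate 2 (0.826%). It was 7 without vehicle replicate 2 (4.69%) and 5 without withdrawal replicate 1 (4.29%). It was 8 without either 1 of the dDAVP arrays (2.90%), which changes the estimate of the spread only. Without withdrawal replicate 2, Fos was at 0.01, Crem at 0.13, Dusp6 at 0.36 and Plk2 at -0.10.

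**Figure D4:**
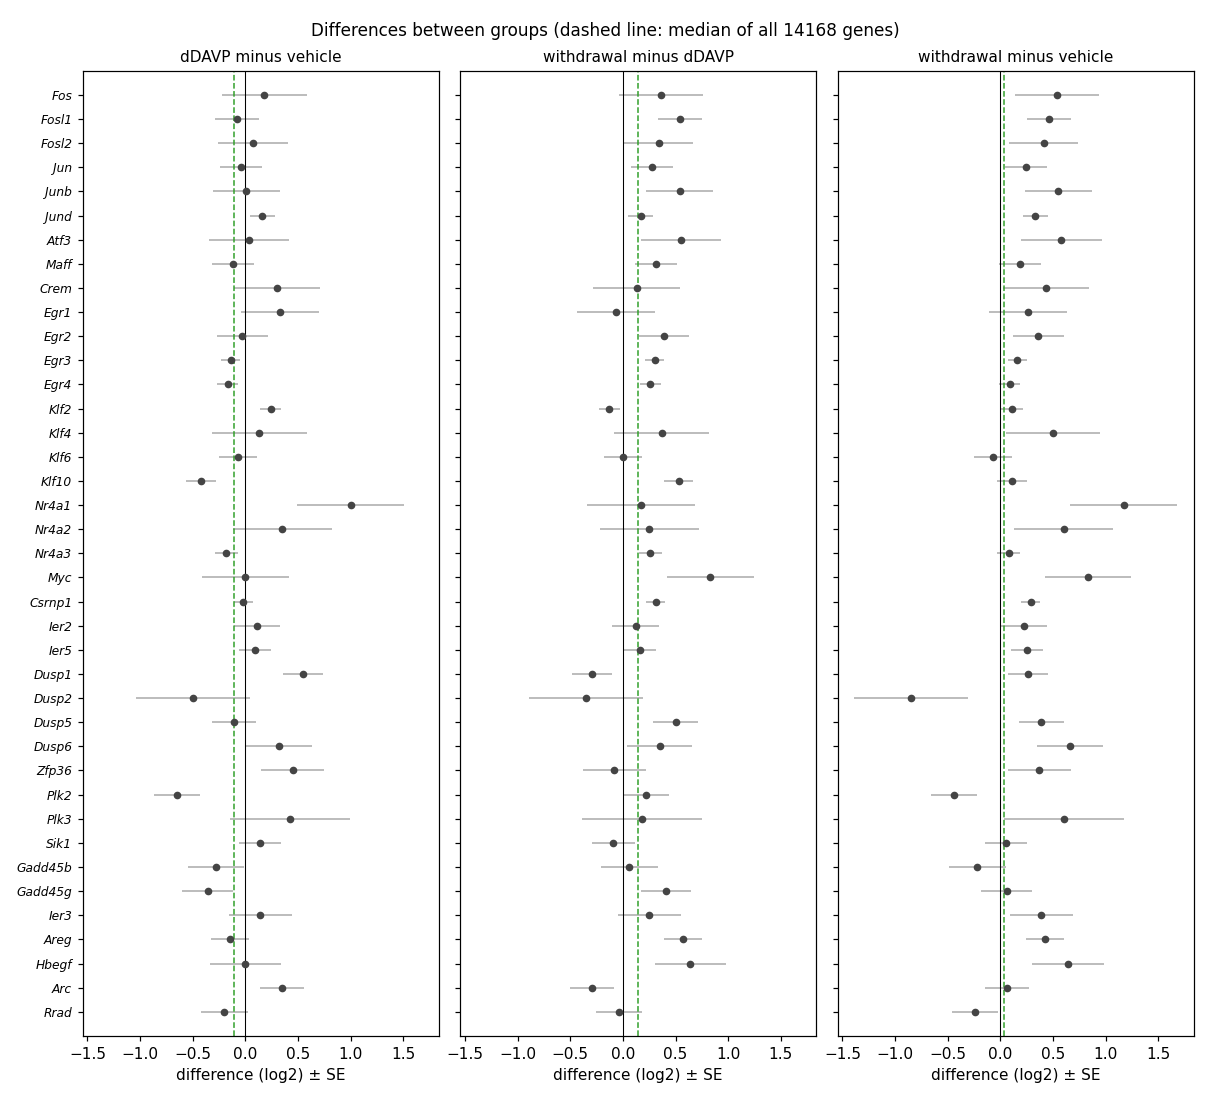
Log2 difference of each of the 39 genes (rows) in the 3 comparisons (panels), with its moderated standard error as the horizontal bar; the dashed green line is the median of all 14168 genes. In withdrawal minus vehicle 34 of the 39 points lie above 0, while in dDAVP minus vehicle 20 do.

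Of the signalling proteins and cofactors that switch immediate early genes on (30 listed, 19 measured), none passed in any comparison, and 5 of the 19 had both standing-apart arrays below the other 4 (12.7% of all genes). Their median differences were -0.02, -0.01 and -0.01 in the 3 comparisons. The GTPase Hras had the smallest unadjusted p of this group, at 0.36 ± 0.12 in withdrawal against vehicle, and Crtc2, a CREB coactivator, was at 0.30 ± 0.21 in dDAVP against vehicle and -0.40 ± 0.21 in withdrawal against dDAVP. In dDAVP against vehicle Hras was at 0.19 ± 0.12, the acetyltransferase Crebbp at -0.19 ± 0.11 and the kinase Rps6ka5 at -0.27 ± 0.16. In withdrawal against dDAVP the kinase Mapk9 was at 0.21 ± 0.13, Srf at 0.22 ± 0.14 and its partner Elk1 at -0.17 ± 0.09. In withdrawal against vehicle the kinase Map2k2 was at 0.18 ± 0.13, Elk3 at -0.21 ± 0.12 and the kinase Mapk14 at -0.22 ± 0.12.

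A second list of 50 fast response genes outside the 41, of which 46 were measured, was lowest in the same arrays in many of its genes. This list was also chosen with earlier results of these data known, so it is not an independent set. Both standing-apart arrays lay below the other 4 in 21 of the 46 genes, against 12.7% of all genes. Ptgs2, the inducible cyclooxygenase, named after its values were seen, was at 9.47 and 11.06 in vehicle, 11.92 and 10.04 in dDAVP and 10.96 and 11.74 in withdrawal. Its arrays fell in the same order as those of Crem, with dDAVP replicate 1 on top. In withdrawal against vehicle 42 of the 46 lay above 0 (59.5% of all genes), with a median of 0.19. The metalloprotease Adamts1 (0.66 ± 0.20) and the leucine zipper factor Cebpb (0.55 ± 0.18) had the smallest unadjusted p, while Edn1 (-0.35 ± 0.19) and Rnd3 (-0.22 ± 0.13) lay below 0. Of the 46, 5 had an unadjusted p under 0.05, all higher (0.642% of all genes).

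In withdrawal against dDAVP 13 of the 46 had an unadjusted p under 0.05, all higher (17.3% of all genes), among them Id1 (0.46 ± 0.10) and the interferon factor Irf1 (0.58 ± 0.13). Thbs1 (-0.39 ± 0.28) and Ccn2 (-0.22 ± 0.16) were lower. In dDAVP against vehicle 4 had an unadjusted p under 0.05, all lower (6.85% of all genes), with Irf1 (-0.51 ± 0.13) and the Notch target Hes1 (-0.36 ± 0.10) smallest in p. Vegfa (0.22 ± 0.11) and Ccn2 (0.31 ± 0.16) were higher. None of the 46 passed in limma in any comparison.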

How the data were processed

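Total RNA extracted with Trizol was labelled with a whole-transcript assay, per the labels' protocols. The deposited values are RMA intensities per probe set on a linear scale, per the submitters' processing notes and the values; neither the RMA version nor a build is named there. Between-array normalization in RMA reduces any change common to most genes. Of 28524 probe sets, 14947 carried 1 symbol, 318 several and 13259 none; Entrez numbers of 14916 matched RefSeq (GRCr8, names only). The brightest probe set per gene was kept (14168 genes, 509 with several), with no filter on dim genes, and log2 was taken. limma 3.58.1 in R 4.3.3 fitted 3 group means to all 6 arrays (3 residual and 3.21 prior degrees of freedom, two-sided tests). The script was tested on simulated data. Distance above background is unknown, and 2 arrays per group limit the precision.

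Means are of log2 values, and differences carry the moderated standard error. Genes with values in every array were 8 fixed members plus, per comparison, the 5 members with the largest differences among those whose arrays did not overlap. In the further lists, the 2 genes of smallest p in each direction were named. Members and lists were chosen with earlier results of these data known. The alternatives were cyclic loess, subtraction of array medians, dropping the dimmest 25% of genes, averaging probe sets, a pseudocount of 32, a variance trend, a fit of 2 groups only, a replicate block, and leaving arrays out. Promoter windows came from RefSeq.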

Additional observations from a re-analysis of the deposited data

How the results depend on the processing

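No member passed an adjusted p of 0.05 (limma) under any alternative run; the counts at an unadjusted p under 0.05 and the signs of many differences moved, including Atf3, Klf4 and Fos in withdrawal against dDAVP (0.55, 0.37 and 0.36 with all arrays), and the causes were not tested beyond what each alternative leaves out. The values gave no sign that the replicate numbers pair the arrays, and cannot show how the arrays were handled. Deviations of same-numbered arrays correlated at -0.62 (vehicle and dDAVP), -0.11 (dDAVP and withdrawal) and -0.00 (vehicle and withdrawal) over all genes. With 2 arrays a group, the -0.62 restates that vehicle replicate 1 and dDAVP replicate 2 were alike. With the replicate block 3, 4 and 1 members had an unadjusted p under 0.05 in the 3 comparisons, against 4, 6 and 2 (3.46%, 10.7% and 0.903% of all genes with the block, 7.43%, 19.0% and 1.79% without it). With the dDAVP numbers crossed, an alternative added after seeing the data, there were 7, 12 and 18 (9.83%, 23.0% and 5.19% of all genes). In withdrawal against vehicle this count was 1 after loess (2.10%), 1 with array medians subtracted (1.86%), 4 with a variance trend (2.14%) and 8 with only the 2 groups fitted (2.90%), and in withdrawal against dDAVP it was 1 after loess (6.51%) and 2 with medians subtracted (8.94%). Without both standing-apart arrays it was 7 in dDAVP against vehicle (7.28%). After loess without those arrays, also added after seeing the data, it was 9 (4.56%), with median differences of 0.29 in dDAVP against vehicle and -0.04 in withdrawal against dDAVP.

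With single arrays left out the count ran from 0 to 14, from 2 to 17 and from 1 to 8, and the median difference from -0.23 to 0.31, from 0.05 to 0.50 and from 0.15 to 0.36, in the order of the comparisons. Differences of dDAVP against vehicle that turned were Jun (0.08), Myc (0.11), Hbegf (0.12) and Fosl1 (0.03) with medians subtracted, Myc (0.10), Hbegf (0.09) and Fosl1 (0.08) after loess, and Myc (0.01) and Fosl1 (0.15) without the standing-apart arrays. After loess without those arrays Jun (0.06), Nr4a3 (0.13), Myc (0.15), Areg (0.03) and Fosl1 (0.31) turned. In withdrawal against dDAVP, Fos (-0.06), Nr4a1 (-0.45), Crem (-0.44) and Klf4 (-0.24) turned without those arrays, and Fos (-0.18), Nr4a1 (-0.54), Atf3 (-0.05), Crem (-0.46), Klf4 (-0.28) and Nr4a3 (-0.05) also after loess. With single arrays left out, dDAVP against vehicle ran from -0.50 to 0.56 for Atf3, -0.27 to 0.87 for Crem, -0.47 to 0.74 for Klf4, -0.27 to 0.18 for Jun, -0.47 to 0.46 for Myc, -0.47 to 0.47 for Hbegf, -0.24 to 0.60 for Fos, -0.30 to 0.95 for Egr1 and -0.26 to 0.09 for Fosl1. Withdrawal against dDAVP ran from -0.70 to 0.56 for Egr1, -0.17 to 0.89 for Fos, -0.45 to 0.80 for Nr4a1, -0.44 to 0.70 for Crem, -0.24 to 0.98 for Klf4 and -0.12 to 0.55 for Plk2. Withdrawal against vehicle ran from -0.02 to 0.18 for Nr4a3 and from -0.06 to 0.27 for Klf10. Leaving out the dimmest genes removed Nr4a3, and 28.8% of all genes then lay above 0 in dDAVP against vehicle (22.1% with them). In that setting 3, 5 and 2 members had an unadjusted p under 0.05 in the 3 comparisons (4.59%, 11.2% and 1.52% of all genes). How far dim members such as Nr4a3, Egr3 and Egr4 lie above background is not known from these values.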

Other observations

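The inflammatory cytokine Il6, a fast response gene named after its values were seen, was at 9.37 in withdrawal replicate 2 and between 6.46 and 6.99 in the other 5 arrays. That array was also the highest of the series for 18 of the 39 immediate early genes, and for 28.1% of all genes. A link between the Il6 value and these genes was not tested.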
